A study of Mus musculus with 21 samples.

Results

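The RUNX transcription factors Runx1, Runx2 and Runx3 and their shared partner Cbfb were described in murine pancreatic ductal adenocarcinoma (PDAC) cell lines that had acquired resistance to a MEK inhibitor. The members were taken by gene symbol and are 4 of the 34478 genes in the expression table. All 4 were among the 19300 genes that passed a filter on low values. Runx1 and Runx2 lie at regions that the study picked for methylation assays with a preference for nearby transcripts whose expression reverted in P12, so the direction of their differences is not independent evidence. The 6 cell lines, numbered #3, #4, #6, #7, #9 and #10, each came from the pancreatic tumor of 1 mouse that carried Ptf1awt/Cre and Trp53loxP/loxP, in which Cre expressed from the Ptf1a locus of the pancreatic lineage removes Trp53. All groups shared the same genotype, so no comparison involved cells with normal Trp53. Parental cells (n = 6) had never met the drug, whereas resistant cells (n = 6) grew permanently in trametinib, an inhibitor of the kinase MEK in the MAPK pathway, at 100 times the concentration that inhibits growth by 50%. Reverting cells were resistant cells passaged without drug, for 5 passages in the state named P5 (n = 3, lines #3, #7 and #9) and for 12 in the state named P12 (n = 6). The descriptions of the P5 libraries of #7 and #9 state 12 passages after withdrawal instead of 5, and the name P5 was kept. Each line contributed 1 RNA library per state, so the cell line was the replicate, and no age of the mice was given in the sources used here.

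RUNX proteins bind DNA through the Runt domain and recognise the bases ACCACA, and CBFB, which does not touch DNA itself, binds to them and raises their affinity. RUNX1 is a master regulator of blood stem cells, RUNX2 is needed for bone formation and cartilage maturation, and RUNX3 acts in T cells, sensory neurons and epithelia. In solid tumors, RUNX genes have been described both as tumor suppressors and as drivers of invasion, and RUNX1 and RUNX2 are phosphorylated by ERK, the kinase below MEK. The mammalian RUNX genes share a layout with a distal and a proximal promoter.

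In the mouse genome (build GRCm38, GENCODE annotation), Runx1 lies at chr16:92601466-92826149 on the minus strand, Runx2 at chr17:44495987-44814797 on the minus strand, Runx3 at chr4:135120652-135177990 on the plus strand and Cbfb at chr8:105170674-105217989 on the plus strand. Promoter windows of 300 bases, 250 before and 50 after a RefSeq start, were searched on both strands for ACCACA. A pair of these motifs separated by 2 bases, ACCACANNACCACA, was found in the distal windows of all 3 RUNX genes. It was present in only 7 of the 32851 promoter windows of the genome (0.0213%), whereas at least 1 ACCACA occurred in 16.8% and at least 2 in 1.81%. The distal windows shared an unbroken run of 18 bases around the pair, which was otherwise found in 1 window, that of Gm16225, which overlaps the Runx3 window on the opposite strand. The shared run reaches from the ca before the first motif to the ag after the second, and the bases outside it are flanks. It is shown because it is what the distal windows of the 3 genes have in common, with the motifs in capitals and in the 5′ to 3′ direction of each gene (GRCm38.p6, RefSeq starts):
Runx1 distal, chr16:92826026-92826053, minus strand: ataaacaACCACAgaACCACAagttggg
Runx2 distal, chr17:44814584-44814611, minus strand: acaaacaACCACAgaACCACAagtgcgg
Runx3 distal, chr4:135120504-135120531, plus strand: tccctcaACCACAgaACCACAaggccag
The pair began 29 bases after the annotated start in Runx1 and 24 bases after it in Runx2, but 134 bases before it in Runx3. The Runx2 window held a further ACCACA 80 bases before the start. No ACCACA was found in the windows of the proximal Runx1 and Runx3 promoters or of Cbfb, and no AP-1 motif TGANTCA was found in any of the 6 windows, against 7.81% of all windows (for Runx2, the distal window was used).

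**Figure D1:**
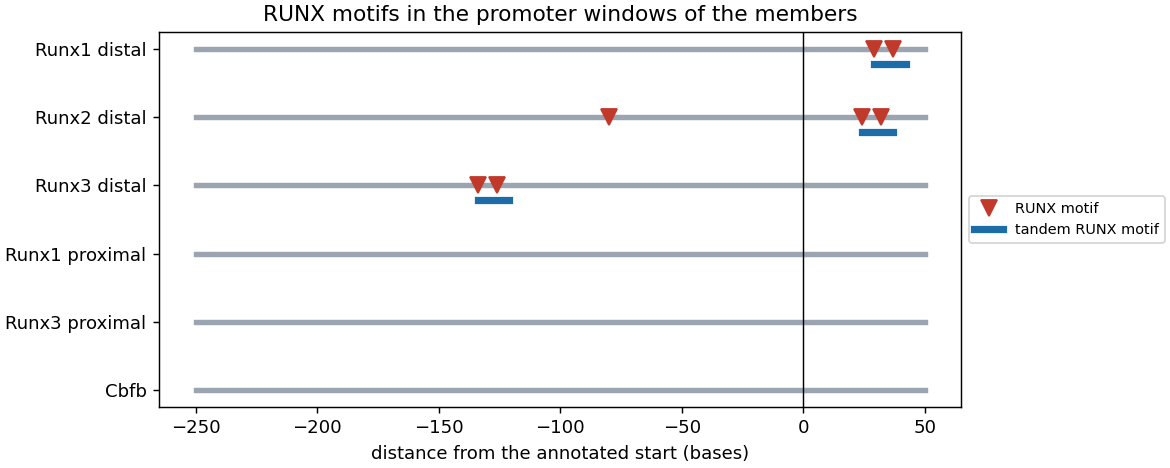
Positions of the RUNX motif (triangles, ACCACA) and of its tandem form (bars) in 6 promoter windows, with the distance from the annotated start in bases on the x axis and 1 window per row. Motifs were found in the 3 distal windows and in none of the 3 others.

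The promoter windows also differed in CpG dinucleotides, the sites of DNA methylation in mammals. The study measured DNA methylation by other assays, which are not analysed here, so the windows are given as sequence only. In the 250 bases before the start, the distal Runx1 window held 2 CpG and the distal Runx2 window 0, whereas the proximal Runx1 window held 27, more than 91.4% of all windows (median 6). The upstream windows of Runx3 held 8 CpG at the distal and 38 at the proximal start, and that of Cbfb held 25. The 2 upstream windows of Runx1 are printed to show this contrast within 1 gene, with every CpG in capitals (GRCm38.p6, 5′ to 3′ along the gene):
Runx1 distal, chr16:92826075-92826324, minus strand: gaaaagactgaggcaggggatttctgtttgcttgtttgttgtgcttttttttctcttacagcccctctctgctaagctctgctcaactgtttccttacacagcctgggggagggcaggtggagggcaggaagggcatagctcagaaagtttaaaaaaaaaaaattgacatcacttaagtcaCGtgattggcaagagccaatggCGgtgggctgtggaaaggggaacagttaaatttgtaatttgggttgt
Runx1 proximal, chr16:92697330-92697579, minus strand: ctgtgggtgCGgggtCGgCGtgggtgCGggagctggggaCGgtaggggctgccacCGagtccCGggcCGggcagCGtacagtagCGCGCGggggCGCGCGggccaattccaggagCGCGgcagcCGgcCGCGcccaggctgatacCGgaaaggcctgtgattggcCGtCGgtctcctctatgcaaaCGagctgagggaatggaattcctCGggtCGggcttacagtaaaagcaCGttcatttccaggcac
The expression values are sums over all transcripts of a gene, so RNA from the distal and the proximal promoter could not be told apart.

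Expression is given in normalized counts, the gene-level counts after normalization in DESeq2 by the authors. Estimated from the spacing of the low values, the libraries held 24.0 to 42.6 M reads (median 32.6 M), and 3 reads, taken here as the smallest number that can be told from 0, corresponded to 2.31 to 4.06 normalized counts (counting error only). Markers of epithelial and duct cells and of other cell types were checked in the same libraries. The study itself reported that resistant cells became more mesenchymal, with lower CDH1 and higher CDH2 protein. The 5 epithelial markers Krt8, Krt18, Krt19, Cdh1 and Epcam summed to a median of 215000 normalized counts in parental and 59200 in resistant cells, with ranges of 15800 to 251000 and 644 to 210000, with Epcam at or under the 3-read level in parental, resistant and P12 cells. The 7 fibroblast markers summed to a median of 493 in parental (121 to 22300) and 169000 in resistant cells (1900 to 403000). A sum is weighted towards the most abundant genes of a list. Of the 6 tested, only Dcn was called higher, and 3 were with the cell line as a block. The log2 fold change was above 0 for 5 of them and below 0 for Pdgfra (-1.13). Of the duct markers, Sox9 and Muc1 were called lower in resistant cells. Immune markers summed to 136 to 423 in every library, and osteoblast markers to at most 185. These shifts ran along with the differences between parental and resistant cells given for the RUNX genes, and their part in them was not tested. In bulk RNA, fewer cells expressing a gene and less RNA per cell cannot be told apart.

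Compared per kilobase of the longest coding transcript, the median level was highest for Cbfb and lowest for Runx3 in all 4 states. In parental cells it was 953 normalized counts per kilobase for Cbfb, 406 for Runx1, 272 for Runx2 and 0.939 for Runx3. In resistant cells the same order held, with medians of 821, 107, 82.9 and 0.527 normalized counts per kilobase. The order of Runx1 and Runx2 depended on the length taken, as division by all annotated exon bases gave parental medians of 198 for Runx1 and 199 for Runx2.

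Runx1 was at an almost uniform level in parental cells and spread widely in resistant cells. The parental libraries held 2193 normalized counts of Runx1 in line #3, 2114 in #4, 2425 in #6, 3181 in #7, 2338 in #9 and 3033 in #10. The resistant libraries held 164, 30.7, 1895, 2324, 548 and 707 normalized counts in the same order of lines. Every resistant library was thus below the parental library of its own line, with lines #6 and #7 near the parental level and line #4 at the lowest level of all 21 libraries. The log2 difference within a line ranged from -6.06 in #4 to -0.36 in #6. Across states, the mean log2 fold change of resistant against parental cells was -2.47 (SE 0.76, 95% interval -4.06 to -0.87), and limma's adjusted p of 0.0336 missed the threshold of 0.01. An exact two-sided sign-flip permutation test over the 6 lines gave p = 0.03125, the smallest p that 6 lines allow, and an adjusted p of 0.25 over the 12 tests of the members.

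Runx2, which drives osteoblast differentiation, was lower in 5 of 6 resistant libraries. The parental libraries held 1683 normalized counts of Runx2 in line #3, 1760 in #4, 2368 in #6, 1097 in #7, 2755 in #9 and 1754 in #10. The resistant libraries held 124, 98.6, 928, 2287, 1117 and 144 normalized counts in the same order. Line #7, which had the lowest parental level, was the exception, where the resistant library was higher by 1.06 on the log2 scale. Resistant cells of lines #3, #4 and #10 were far below every parental library, those of #6 were nearer but also below all of them, and those of #9 lay just above the parental library of #7. The log2 fold change of resistant against parental cells was -2.18 (SE 0.61, 95% interval -3.46 to -0.90), with an adjusted p of 0.0213 in limma. Without line #7 it was -2.83 with an adjusted p of 0.00466, which passed the threshold. Without #3, #4 or #10 the adjusted p in limma rose to 0.107, 0.0869 and 0.0887. The exact sign-flip permutation test over the 6 lines gave p = 0.0625 (adjusted p = 0.25).

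Runx3 separated the lines rather than the states. Line #9 held 627 normalized counts of Runx3 in parental, 1063 in resistant, 1176 in P5 and 888 in P12 cells. Line #6 held 165 in parental, 143 in resistant and 420 in P12 cells. Both lines thus expressed Runx3 with and without the drug. In lines #4, #7 and #10 no library held more than 5.87 normalized counts. Line #3 stood apart from the others, with 0 in the parental and the resistant library, 20.8 in P5 and 67.4 in P12. Measured against the 3-read level, P12 cells of line #3 held at least 21.7-fold more Runx3 than resistant and at least 22.4-fold more than parental cells, each a comparison of 2 single libraries without a test. Over all libraries, Runx3 was above the 3-read level in 11, at or under it in 10 and at 0 in 5. The log2 fold change of resistant against parental cells was -0.19 (SE 2.23, 95% interval -4.85 to 4.46, adjusted p = 0.969 in limma), and with the block the SE was 0.82 and the adjusted p 0.891.

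Cbfb, the shared partner, was the most evenly expressed of the 4 genes. The parental libraries held 3673 normalized counts of Cbfb in line #3, 2449 in #4, 2836 in #6, 2456 in #7, 3062 in #9 and 2673 in #10. The resistant libraries held 2667, 1016, 1772, 3630, 2082 and 3340 in the same order. The resistant library was below the parental one in lines #3, #4, #6 and #9 and above it in #7 and #10, and the lowest value was again that of line #4. The log2 fold change was -0.35 (SE 0.26, 95% interval -0.89 to 0.19, adjusted p = 0.404 in limma).

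**Figure D2:**
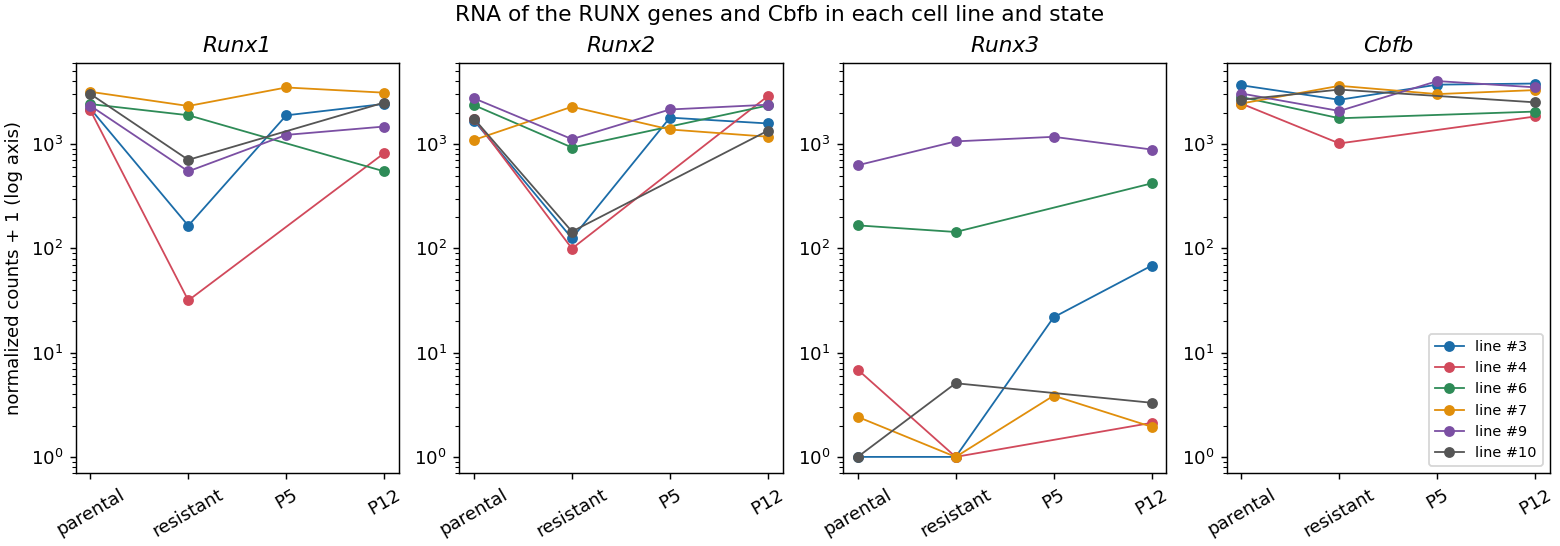
Normalized counts plus 1 (y axis, log scale) of Runx1, Runx2, Runx3 and Cbfb in parental, resistant, P5 and P12 cells (x axis), with 1 point per library and a line joining the libraries of each cell line. Runx1 and Runx2 were lowest in resistant cells of lines #3 and #4, with Runx2 as low in line #10, while Runx3 was at least 143 in every library of #9 and #6.

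Called at an adjusted p under 0.01 and a log2 fold change beyond 1, 0 of the 4 members passed in resistant against parental cells, where 5.3% of all genes tested were called (10.5% with the cell line as a block). At an unadjusted p under 0.05, 2 members passed in limma, Runx1 and Runx2, as did 29.2% of all genes tested, and the same 2 had an adjusted p under 0.05, as did 15.6%. The block, which compares states within a line, left all 4 members uncalled, with adjusted p of 0.0122 for Runx1 and 0.014 for Runx2.

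The spread between lines of Runx1 and Runx2 was larger in resistant than in parental or P12 cells, without a test of spread. For Runx1, the SD of the log2 level was 0.25 in parental cells, larger than for only 14.9% of genes tested, and 2.33 in resistant cells, larger than for 90.4%. In P12 cells it was 1.00, larger than for 68.8%. For Runx2 it was 0.46 in parental, 1.95 in resistant and 0.52 in P12 cells, larger than for 45.3%, 86.1% and 42.5% of genes tested. The median over all genes tested was 0.51, 0.72 and 0.61 in these states, so it was also highest in resistant cells. The highest resistant library held 75.7 times as much Runx1 as the lowest, against 1.5 times among parental libraries. Runx3 varied between lines by an SD of 3.96 to 4.34 on the log2 scale in parental, resistant and P12 cells, larger than for at least 98.9% of genes tested. Cbfb varied by 0.22 in parental, 0.68 in resistant and 0.43 in P12 cells.

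The differences of Runx1 and Runx2 between resistant and parental cells were also compared line by line. Over the 6 lines, the log2 differences of resistant against parental cells had a Pearson's r of 0.788 for Runx1 and Runx2 (exact permutation p = 0.0458, adjusted p = 0.137 over 3 pairs of members) and a Spearman's rho of 0.829 (exact permutation p = 0.0583, adjusted p = 0.175). Without lines #4 and #6, the farthest from the median of Runx1, r was 0.868. For Runx1 and Cbfb, r was 0.651 (exact permutation p = 0.172) and rho 0.257 (exact permutation p = 0.658). For Runx2 and Cbfb, r was 0.518 (exact permutation p = 0.286) and rho 0.543 (exact permutation p = 0.297), and without lines #7 and #4 r turned to -0.663. None of these relations passed correction.

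**Figure D3:**
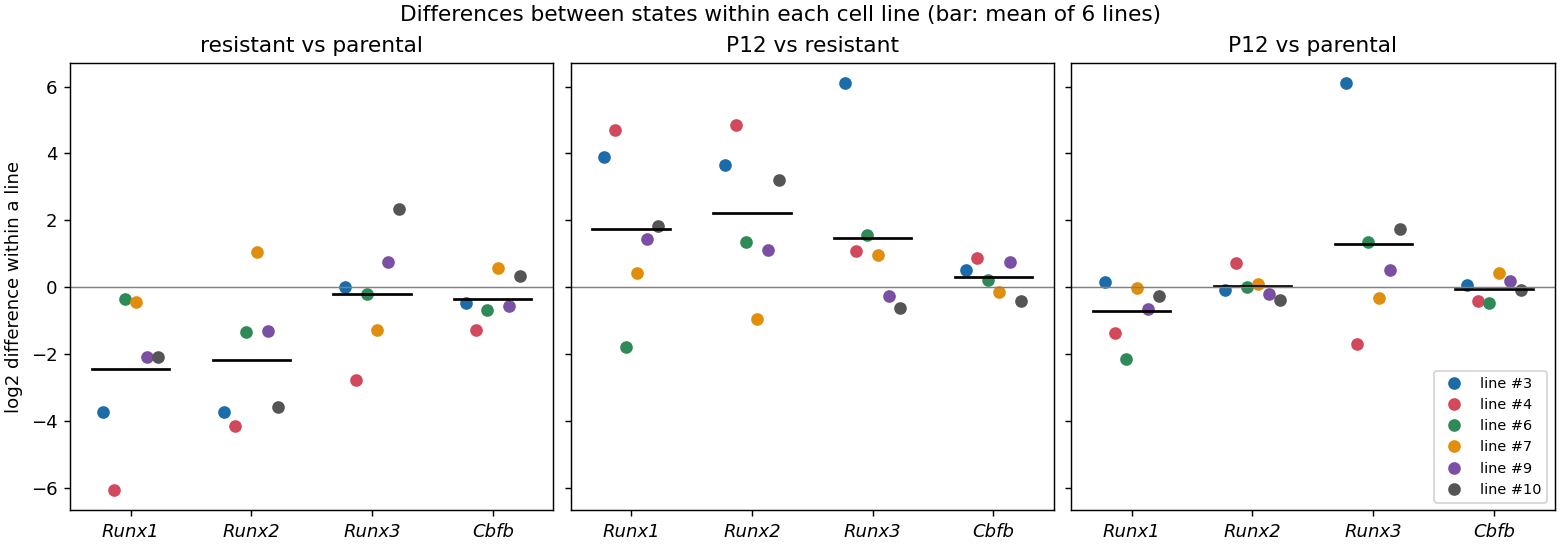
Log2 differences between states within each cell line (y axis) for the 4 members (x axis), with 1 point per line and a bar at the mean of the 6 lines, for resistant against parental, P12 against resistant and P12 against parental cells. Runx1 was below 0 in all 6 lines in the first panel, and Runx2 lay within 0.72 of 0 in every line in the last.

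After withdrawal of the drug, Runx2 in P12 cells lay within 0.72 of its parental level on the log2 scale in every line. The P12 libraries held 1580 normalized counts of Runx2 in line #3, 2895 in #4, 2352 in #6, 1178 in #7, 2391 in #9 and 1348 in #10. The log2 difference from the parental library of the same line lay between -0.38 in #10 and 0.72 in #4, and the mean was 0.02 (SE 0.61, 95% interval -1.26 to 1.30, adjusted p = 0.992 in limma). Against resistant cells, Runx2 was higher in 5 of 6 lines and lower in #7, with a mean log2 fold change of 2.20 (SE 0.61, adjusted p = 0.0355 in limma). The exact sign-flip permutation test gave p = 0.0625 (adjusted p = 0.25).

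For Runx1, P12 cells lay within the same 0.72 of the parental level in lines #3, #7, #9 and #10 and further below it in #4 and #6. The P12 libraries held 2433 normalized counts of Runx1 in line #3, 820 in #4, 548 in #6, 3119 in #7, 1476 in #9 and 2507 in #10. The log2 difference from the parental library was 0.15 in #3, -0.03 in #7, -0.27 in #10 and -0.66 in #9. In #4 it was -1.37, although P12 cells of this line were far above their resistant library. In line #6 the order was the opposite, with Runx1 near the parental level in resistant cells and a log2 difference of -2.15 between P12 and parental cells. The mean log2 fold change was 1.74 for P12 against resistant cells (SE 0.76, adjusted p = 0.203 in limma) and -0.72 for P12 against parental cells (SE 0.76, 95% interval -2.31 to 0.87, adjusted p = 0.68 in limma), with P12 below parental in 5 of 6 lines (exact sign-flip permutation p = 0.09375).

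For Cbfb, the P12 libraries ranged from 1844 to 3818 normalized counts (median 2911), overlapping the range of 2449 to 3673 in parental cells, with a log2 fold change of -0.05 (95% interval -0.59 to 0.49). In P12 against resistant cells, 0 of the 4 members were called, against 2.13% of all genes tested (4.52% with the block), and 2 had an unadjusted p under 0.05 in limma, as did 19.8% of all genes. In P12 against parental cells, 0 of the 4 were called, against 0.114% of all genes (0.523% with the block), and 0 had an unadjusted p under 0.05 in limma, against 15.3% of all genes. These comparisons share the P12 libraries and are not independent of each other.

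For Runx1 and Runx2, the 3 P5 libraries lay within 0.93 of the parental ones on the log2 scale, whereas Runx3 of line #3 differed by 4.45. In line #7, resistant cells had differed from parental ones by only -0.45 for Runx1 and by 1.06 for Runx2, so there was little loss to regain. The number of drug-free passages of #7 and #9 is uncertain, as given above. Runx1 was at 1891 normalized counts in line #3, 3500 in #7 and 1227 in #9, and Runx2 at 1797, 1383 and 2152. Line #9 had the only Runx1 level clearly short of its parental one, lower by 0.93 on the log2 scale. In P5 against resistant cells, Runx1 was higher in 3 of 3 lines and Runx2 in 2 of 3, with log2 fold changes of 2.14 (SE 0.93, adjusted p = 0.272) and 2.12 (SE 0.75, adjusted p = 0.163) in limma, where the 3 lines were set against all 6 resistant libraries. Cbfb was at 3725, 3024 and 4032 normalized counts, with a log2 fold change of 0.68 (SE 0.32, adjusted p = 0.309 in limma). In P5 against resistant cells 0 of 4 members were called, against 0.378% of all genes (0.611% with the block), and 3 had an unadjusted p under 0.05 in limma, as did 15.4% of all genes. In P5 against parental cells 0 of 4 were called, against 0.0259% of all genes, and 0 had an unadjusted p under 0.05 in limma, against 10.4% of all genes. With 3 lines, the exact sign-flip permutation test cannot give a p under 0.25.

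Ordered by their medians, the Runx1 levels were 2382 normalized counts in parental, 1955 in P12, 1891 in P5 and 627 in resistant cells, and their ranges overlapped between all neighbouring states. For Runx2, the medians were 1966 in P12, 1797 in P5, 1757 in parental and 536 in resistant cells, the upper 3 did not differ beyond their spread, and the resistant range overlapped all of them. For Cbfb, the medians were 3725 in P5, 2911 in P12, 2754 in parental and 2374 in resistant cells, and all ranges overlapped their neighbours. For Runx3, the medians were 34.8 in P12, 20.8 in P5, 3.65 in parental and 2.04 in resistant cells, each within a range that began at or under the 3-read level and reached at least 627.

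By the correlation of log2 levels over the 21 libraries, the genes most like Runx1 were Bahcc1 (r = 0.908), Cdk18 (r = 0.902) and Cenpv (r = 0.872), and Runx2 ranked 119th with r = 0.726. Bahcc1 encodes a BAH-domain protein and Cdk18 a cyclin-dependent kinase. Bahcc1 ranged from 1697 to 4967 normalized counts in parental (median 3334), from 20.6 to 4816 in resistant (median 1223) and from 1928 to 3772 in P12 cells (median 2841). The genes most like Runx2 were Ifi204 (r = 0.944), Ifi211 (r = 0.927) and Ank (r = 0.889). Ifi204 and Ifi211 are interferon-inducible genes of a cluster of close copies, so reads may be split between them, and Ank encodes a transporter that controls pyrophosphate outside the cell and thereby mineralization. Ank ranged from 4871 to 32840 normalized counts in parental, 19.6 to 16220 in resistant and 6220 to 30810 in P12 cells.

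The genes most like Runx3 were Gm10557 (r = 0.883), Pcna-ps2 (r = 0.873) and Togaram2 (r = 0.859), and those most like Cbfb were Mir17hg (r = 0.886), Rttn (r = 0.863) and Cenpc1 (r = 0.855). Pcna-ps2 is a pseudogene and may share reads with its parent gene. Mir17hg is the host transcript of the miR-17 microRNA cluster, Rttn encodes a centriole protein and Cenpc1 a kinetochore protein. The 21 points are libraries of 6 lines and share their line and state, and the 90th percentile of the absolute r over all genes was between 0.525 and 0.564 for the 4 members.

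Genes that work with RUNX proteins or are known as their targets were followed in fixed lists, set against the 2.57% of all genes called higher and 2.73% called lower in resistant against parental cells. With the line as a block, 10.5% of all genes were called in either direction. In P12 against resistant cells the share was 2.13%, and 4.52% with the block. Of 22 co-repressors and co-activators tested, 1 was higher and 2 were lower, and the median log2 fold change was -0.24, against a median of 0.00 over all genes tested. Runx1t1, the co-repressor known as ETO and as the fusion partner of RUNX1 in leukemia, had 2.97 to 51.4 normalized counts in parental (median 5.61) and 22.1 to 547 in resistant cells (median 205). It rose by a log2 fold change of 4.02 (SE 0.89, adjusted p = 0.00536 in limma), in 6 of 6 lines. Hdac4, a deacetylase that binds RUNX2, fell in 6 of 6 lines from a median of 1048 to 420 normalized counts (log2 fold change -1.17, adjusted p = 0.007 in limma). Suv39h1, a histone methyltransferase, fell in 6 of 6 lines from a median of 4863 to 1865 (log2 fold change -1.59, adjusted p = 0.00241 in limma). The largest difference that was not called was that of Cbfa2t3, -1.46 (adjusted p = 0.383). In P12 against resistant cells 0 of the 22 were called in limma, and 3 were when the line was added as a block, Tle2 and Hdac4 higher and Runx1t1 lower. The call of Runx1t1 was lost without line #3, #6 or #10, that of Suv39h1 without #3, #4 or #6, and that of Hdac4 without any 1 line but #9, while the log2 fold changes stayed between 3.54 and 4.46, -1.86 and -1.40, and -1.31 and -1.07.

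Of 8 genes that control the stability of RUNX proteins, 0 were called in limma. The differences furthest from 0 were 0.63 for the ubiquitin ligase Smurf2 (adjusted p = 0.0773), -0.49 for Smurf1 (adjusted p = 0.333), 0.49 for Mdm2 (adjusted p = 0.0624) and -0.42 for Cdc20 (adjusted p = 0.394). Of 20 partner transcription factors tested, 1 was called. Fos, an AP-1 subunit whose gene is an immediate target of the MAPK pathway, fell from 75.7 to 347 normalized counts in parental (median 126) to 12.5 to 44.5 in resistant cells (median 27.1), without overlap. Its log2 fold change was -2.44 (SE 0.52, adjusted p = 0.00408 in limma), in 6 of 6 lines, and between -2.77 and -2.19 with 1 line left out, the call being lost without #3, #4 or #7. Jun, the other AP-1 subunit on the list, differed by 1.36 (adjusted p = 0.118) and Lmo2 by 2.19 (adjusted p = 0.25), and the median of the list was -0.12.

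Of 16 bone and cartilage genes known as RUNX2 targets and tested, 2 were lower and 0 higher in resistant cells, with a list median of -0.03. Spp1, which encodes the secreted matrix protein osteopontin, ranged from 62650 to 158400 normalized counts in parental (median 96740), 148 to 3392 in resistant (median 1077) and 18470 to 351100 in P12 cells (median 80910). The resistant libraries did not overlap with any other state. Spp1 fell by 7.18 on the log2 scale in resistant against parental cells (SE 0.86, adjusted p = 3.53e-05 in limma) and rose by 6.94 in P12 against resistant cells (adjusted p = 8.35e-05 in limma), each time in 6 of 6 lines and in every alternative run. This included line #7, in which Runx2 was higher in resistant cells, and a link between the 2 genes was not tested. Ihh, the ligand Indian hedgehog, fell from a median of 162 normalized counts in parental to 6.34 in resistant cells (log2 fold change -4.88, SE 0.75, adjusted p = 0.000342 in limma), and its P12 median was 9.37. P12 against parental cells had a log2 fold change of -4.28, with an adjusted p of 0.0124 in limma that missed the threshold (0.00672 with the block, where it was called lower). Bglap, Bglap2 and Ibsp did not pass the filter on low values, and Sp7, the factor that follows RUNX2 in osteoblasts, was not called (log2 fold change -1.03, adjusted p = 0.562). With the block, Col1a1 and Fgfr3 were also called, as higher in resistant cells. Col1a1 belongs to the fibroblast markers given above and had a log2 fold change of 5.19 (adjusted p = 0.0634 without and 0.00363 with the block).

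Of 20 blood cell and platelet genes listed as RUNX1 or RUNX3 targets, 12 were tested, of which 1 was higher and 2 were lower. Itga2b, the platelet integrin subunit, rose from a median of 55.5 normalized counts to 429 (log2 fold change 2.54, SE 0.51, adjusted p = 0.00247 in limma), in 6 of 6 lines, and was not called without line #3 or #4 (log2 fold change 2.30 to 2.73 with 1 line left out). Csf2, the cytokine GM-CSF, had 10.7 to 53.6 normalized counts in parental and at most 2.04 in resistant cells, with a median of 0. It was called lower (adjusted p = 0.00231 in limma), but its fitted log2 fold change ran from -5.62 to -2.29 with the pseudocount, and it was not called with a pseudocount of 8 nor without #3, #4, #6 or #10 (-5.08 to -4.57 with 1 line left out). Cebpa, a factor of granulocyte differentiation, had a log2 fold change of -2.57 (adjusted p = 0.00905 in limma) and was lower in 6 of 6 lines, but was not called with the block (adjusted p = 0.0113) nor without any 1 line but #9 (-2.91 to -2.30). Myl9 differed by 3.01 (adjusted p = 0.233). Of 10 genes described as RUNX targets in epithelia and tumors, Spp1 was lower and Col6a1, a collagen VI chain, higher, from a median of 1429 to 29540 normalized counts (log2 fold change 4.64, SE 1.02, adjusted p = 0.00497 in limma). With 1 line left out, Col6a1 was called without #7 and not without #3, #4, #6, #9 or #10 (3.78 to 5.17). Cldn1 differed by 1.52 (adjusted p = 0.503) and Jag1 by -1.34 (adjusted p = 0.188). A fit of the parental and resistant libraries alone left Runx1t1, Hdac4, Cebpa, Col6a1 and, beside Runx2, the antisense transcript Runx2os2 uncalled, no filter on low values did so for Hdac4 and Cebpa, and limma without a trend for Cebpa.

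**Figure D4:**
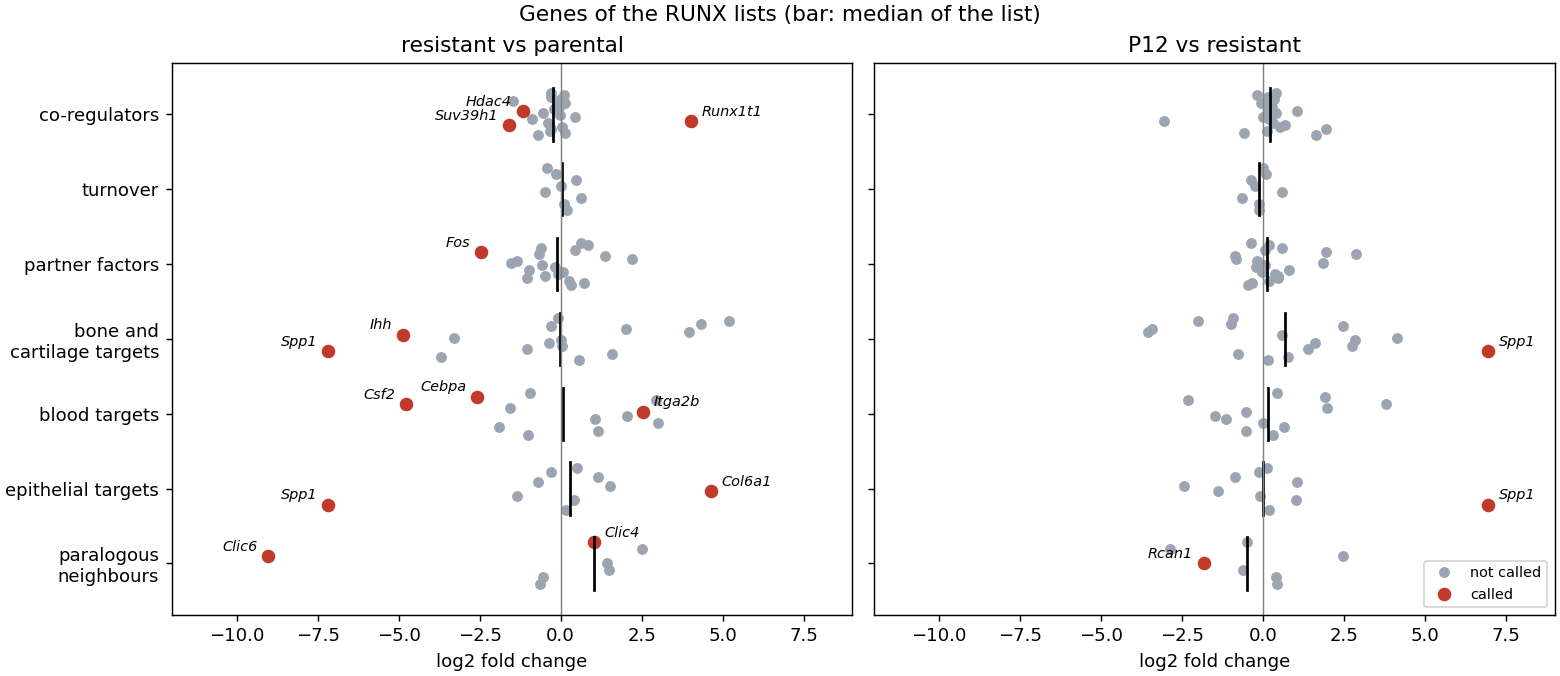
Log2 fold changes (x axis) of the genes in 7 RUNX lists (rows) for resistant against parental cells and for P12 against resistant cells, with 1 point per gene, called genes in red with their names, and a bar at the median of each list. Most co-regulators and turnover genes lay near 0, whereas the target lists spread to both sides of it. In the first panel, for example, Tnfsf11 was at -3.69 and Fgfr3 at 3.95, neither of them called. Spp1 was at -7.18 and 6.94 in the 2 panels.

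The 3 RUNX genes lie beside members of the CLIC and RCAN gene families, which were duplicated with them, so the neighbours were compared across the 3 loci. Clic6, a chloride channel gene, lies 60223 bases beyond the 3′ end of Runx1. Its parental libraries held 1681 normalized counts in line #3, 1996 in #4, 1805 in #6, 6387 in #7, 11.9 in #9 and 8397 in #10, and its resistant libraries at most 4.12. In P12 it rose to 898 in #7 and 1111 in #10, still below their parental libraries, and stayed at or under 1.76 in the other 4. Clic6 was lower in P12 than in parental cells in 6 of 6 lines, but not called (adjusted p = 0.12 in limma, 0.0157 with the block). It was called lower in resistant cells (adjusted p = 0.00415 in limma), with a fitted log2 fold change that ran from -10.32 to -7.12 over the alternatives, and not called without #3, #4, #6 or #10 (-10.32 to -8.63 with 1 line left out). Rcan1, a calcineurin inhibitor on the same side of Runx1, was higher in 6 of 6 resistant libraries, at 503 to 1508 against 251 to 554 normalized counts (log2 fold change 1.42, SE 0.38, adjusted p = 0.0159 in limma and 0.00085 with the block, where it was called). It fell by 1.82 on the log2 scale in P12 against resistant cells (adjusted p = 0.00662 in limma), in 6 of 6 lines, a call that held with 1 line left out only without #3 (-1.94 to -1.56) and was lost in a fit of the compared states alone.

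At the Runx3 locus, Clic4 was the most abundant of these genes, with 6336 to 10120 normalized counts in parental and 11090 to 21820 in resistant cells. It rose in 6 of 6 lines (log2 fold change 1.03, SE 0.25, adjusted p = 0.00976 in limma), close to both thresholds. It was not called with a pseudocount of 8, without the filter, after rescaling or without a trend, and was called with 1 line left out only without #9 (0.91 to 1.08). Rcan3 differed by -0.54 (adjusted p = 0.31). At the Runx2 locus, Clic5 was 44.3 to 52.4 normalized counts in 5 parental libraries and reached 1444, 1146 and 1142 in the resistant libraries of #3, #7 and #10, with a log2 fold change of 2.50 (SE 1.36, adjusted p = 0.233). Rcan2 differed by 1.51 (adjusted p = 0.544). Of the 7 neighbours, 1 was higher and 1 lower in resistant cells, where 5.3% of all genes were called. With the block 2 were higher and 1 lower, where 10.5% of all genes were called.

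Transcripts that overlap Runx2 were compared in the same way. Supt3, a gene for a transcription co-activator subunit that overlaps the start of Runx2 on the opposite strand, had 193 to 395 normalized counts in resistant against 355 to 638 in parental cells, lower in 6 of 6 lines (log2 fold change -0.65, SE 0.23, adjusted p = 0.0623 in limma). The antisense transcripts Runx2os1 and Runx2os2 were looked at after their values had been seen. Runx2os2 lies at chr17:44710222-44713925 inside Runx2 and held 3.63 to 20.01 normalized counts in parental (median 12.0), 0 to 4.08 in resistant (median 1.20) and 10.8 to 23.6 in P12 cells (median 14.5). It was called lower in resistant than in parental cells (adjusted p = 0.00263 in limma) and higher in P12 than in resistant cells (adjusted p = 0.00121 in limma), in 6 of 6 lines each, including line #7. Its resistant values lie near the 3-read level, so the fitted log2 fold changes of -2.35 and 2.89 depend on the pseudocount. The first call was lost with a pseudocount of 8 (-0.98) and without #3, #6 or #10 (-2.63 to -1.98) and the second without #3 or #10 (2.56 to 3.11) or in a fit of the compared states alone. Runx2os1 differed by -1.66 (adjusted p = 0.0863). The libraries were made with a stranded kit, but whether the quantification used the strand is not given in the sources used here, so reads of Runx2 and its antisense partners may not be fully separated.

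**Figure D5:**
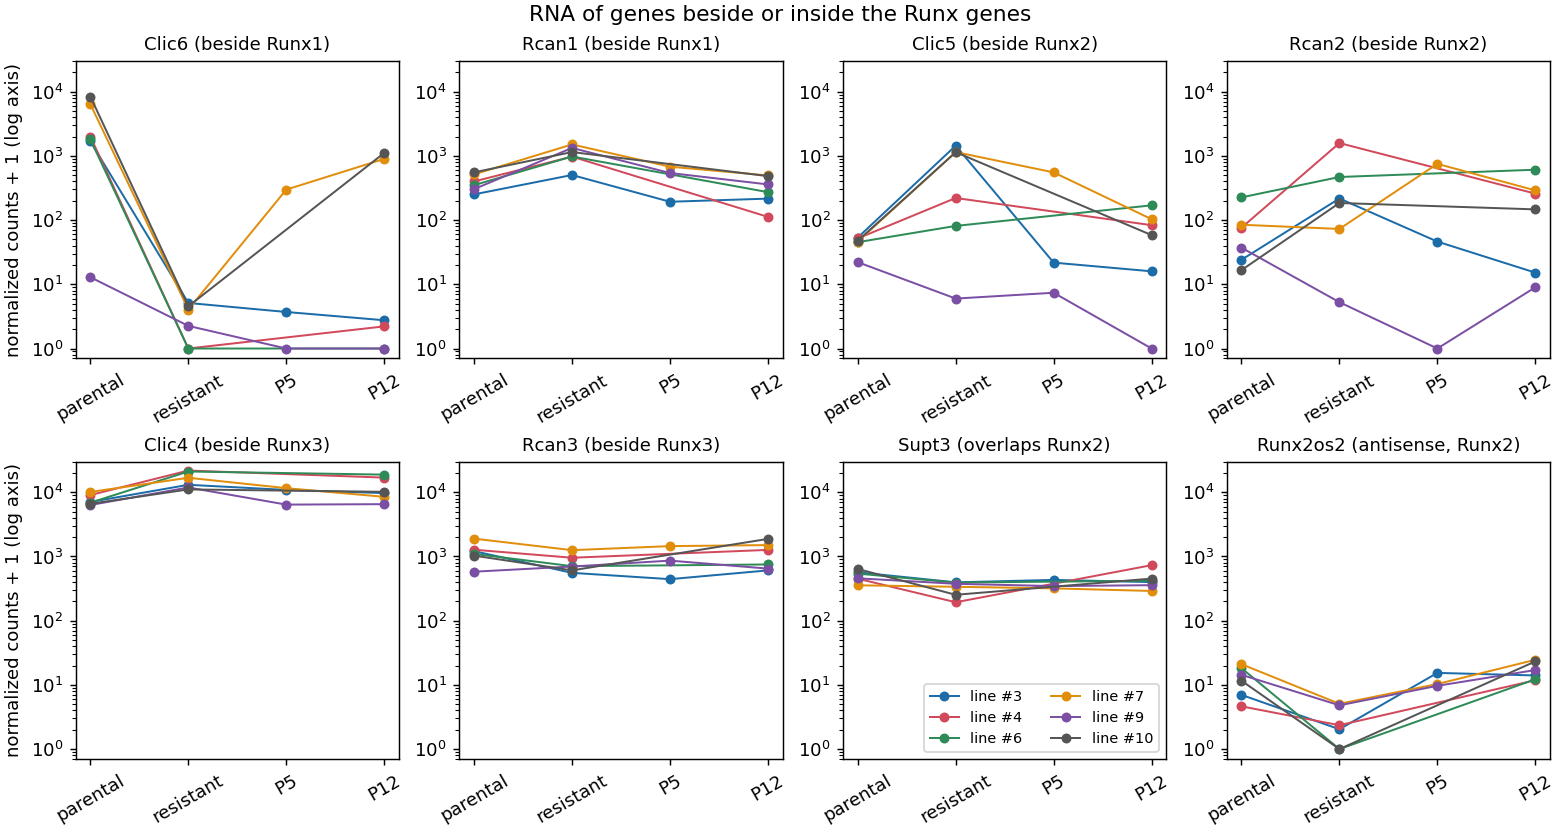
Normalized counts plus 1 (y axis, log scale) of 8 genes beside or inside the RUNX genes in the 4 states (x axis), with 1 point per library and lines joining the libraries of a cell line. Clic6 dropped to at most 4.12 in all resistant libraries, Rcan1 and Clic4 were higher in resistant than in parental cells of every line, and Runx2os2 was lower.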

How the data were processed

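RNA-seq of 21 libraries (TruSeq Stranded mRNA) from 6 cell lines in 4 states was used. According to the methods, the authors trimmed reads with Skewer, used salmon 0.12 for transcript quantification and TXImport for gene-level counts, and normalized these in DESeq2 1.18 (mm10). The notes of the submitters also name CASAVA 2.17 and bcl2fastq 2.19. The values deposited are a normalized signal, counts divided by DESeq2 size factors, from which whole reads could not be recovered, so no count test was run. Depth was estimated from the step between low values, on which 44.8% to 70.2% of them fell. More than 1 sequencer model was used without assignment to libraries, so values within sequencing batches could not be given.

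Genes with at least 10 normalized counts in at least 3 libraries (19300 of 34478) were tested on log2(value + 1) with limma 3.58.1 (R 4.3.3, lmFit, contrasts, eBayes with a trend) in 1 fit of all 21 libraries, with Benjamini-Hochberg adjustment over all genes and calls at an adjusted p below 0.01 and a log2 change beyond 1. Fold changes of low genes are understated on this scale. Libraries of a line come from the same animal, and their deviations from the state means had a median correlation of 0.435 (27 pairs, -0.06 to 0.806), against -0.0962 for libraries of different lines (135 pairs), so the line was used as a block in an alternative. Exact sign-flip permutation tests over lines were added later, with Python 3.11.15 and scipy 1.17.1. Without the block, the p-values of limma rest on the spread between libraries of the same state, pooled over states, and treat the 21 libraries as independent. With the block and in the sign-flip tests, they rest on the spread of differences within lines. The scripts were tested on simulated data.

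The members and the gene lists were chosen with earlier results of these data known, and the lists were recalled from general knowledge. Named are the members, the called genes of each list plus its largest differences up to 4, the neighbours, and the 3 genes most correlated with each member. A few items that these rules or the labels name are not reported here. Promoter windows of 32851 starts came from RefSeq (GRCm38.p6) and gene positions from GENCODE. Alternatives were other pseudocounts and filters, rescaling to the upper quartile, the block, no trend, a looser threshold, fits of the compared states alone and each line left out.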

Additional observations from a re-analysis of the deposited data

How the results depend on the processing

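The 20 results of the members (4 genes in 5 comparisons) were recomputed under 15 alternatives, and 12 kept their direction and their side of the threshold in all of them. At an adjusted p below 0.05, resistant against parental passed for Runx1 (-2.47) and Runx2 (-2.18), and P12 against resistant for Runx2 (2.20). None of these stayed below 0.05 in every run. A limma fit of the compared states alone gave adjusted p of 0.0743, 0.067 and 0.142 in the same order. Leaving out 1 line raised the adjusted p in limma to as much as 0.137, 0.107 and 0.185. With 1 line left out, the log2 fold change of resistant against parental ranged from -2.89 to -1.75 for Runx1, from -2.83 to -1.79 for Runx2, which was called without #7, and from -0.70 to 0.32 for Runx3. Values near 0 changed sign: Runx3 in resistant against parental cells to 0.0199 at a pseudocount of 8, to 0.32 when #4 was left out and to 0.024 when #7 was, and Cbfb in P12 against parental cells to 0.0028 after rescaling and, with 1 line left out, from -0.14 to 0.037. With 1 line left out, Runx2 in P12 against parental cells ranged from -0.12 to 0.10, and in P5 against parental cells Runx1 ranged from -0.66 to 0.011 and Runx2 from -0.11 to 0.012. The cause was not tested.

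The number of genes called in resistant against parental cells (1023), P12 against resistant (412), P12 against parental (22), P5 against resistant (73) and P5 against parental (5) moved by over 1.5 times in the following settings. At an adjusted p below 0.05 it was 2190, 947, 116, 376 and 9. With the cell line as a replicate block it was 2017, 872, 101 and 118 in the first 4, and the block changed no call of a member. With only the compared states in the fit it was 93, 12, 14 and 1 in the last 4, and with a mean of at least 100 it was 5 in P12 against parental and 3 in P5 against parental cells. With 1 line left out it was 450 to 1237, 132 to 467, 4 to 68, 23 to 48 and 1 to 5. Of the 16 named calls, 3 held in every alternative, Spp1 in both comparisons and Ihh, and all 16 kept their sign. Depth limits Runx3, Clic6, Csf2 and Runx2os2, whose low values lie at the 3-read level. The sign-flip tests, chosen after seeing the data, rest on the same mean differences in the comparisons over 6 lines.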

Other observations

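The balance of Runx1 and Runx2 differed between lines and states. Runx1 over Runx2 in normalized counts was 1.30 in parental cells of line #3, 1.20 in #4, 1.02 in #6, 2.90 in #7, 0.849 in #9 and 1.73 in #10. In resistant cells it was 1.32, 0.311, 2.04, 1.02, 0.49 and 4.90 in the same order, and in P12 cells 1.54, 0.283, 0.233, 2.65, 0.617 and 1.86. The ratio was thus lower in P12 than in parental cells of lines #4, #6, #7 and #9 and higher in #3 and #10. Lengths of the genes were not taken into account, so a ratio of 1 does not mark equal levels, and these are values of single libraries without a test.

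Among genes further along the same chromosomes, those named next all missed the threshold of an adjusted p below 0.01 without the block. An adjusted p below 0.05 in limma was reached by 15.6% of all genes tested. B3gnt9, a glycosyltransferase gene 34649 bases from Cbfb, had a log2 fold change of 2.61 in resistant against parental cells (adjusted p = 0.0403 in limma). Next to Runx3 on its other side, Syf2 and Rsrp1, which encode splicing-related proteins, differed by 0.67 (adjusted p = 0.0484 in limma) and 0.59 (adjusted p = 0.0382 in limma). Enpp4, left of Runx2, differed by 1.03 (adjusted p = 0.147 in limma, 0.00473 with the cell line as a block, where 10.5% of all genes were called). Others lay near 0, such as Setd4 (-0.02), Cdc5l (-0.12), Srrm1 (0.10) and D230025D16Rik (0.04). Spats1 differed by 0.25 and Cbr1 by -1.08 (adjusted p = 0.701 in limma).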
